A study of Mus musculus with 12 samples.

Results

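Integrin and laminin subunit genes were examined in cultured adult neural stem/progenitor cells (aNSPCs) with and without NAD+. The members were all genes whose symbol names an integrin alpha or beta subunit or a laminin alpha, beta or gamma chain, chosen by symbol and not by their values. There were 37 such genes among the 55401 listed, 18 integrin alpha, 8 integrin beta, 5 laminin alpha, 3 laminin beta and 3 laminin gamma genes. The aNSPCs came from the forebrain of C57BL/6 mice aged 8 to 10 weeks and were kept in medium with B27, 20 ng/mL EGF and 20 ng/mL FGF-2. Total RNA was sequenced from 4 groups of 3 samples, 12 in all. Proliferating Ctrl and proliferating NAD+ cells stayed under proliferating conditions, and differentiation Ctrl and differentiation NAD+ cells received 1 µM retinoic acid and 5 µM forskolin, with 1 mM NAD+ in both NAD+ groups. The treatment field of the labels calls all 12 samples untreated, so the groups follow the sample titles. The authors call the 3 samples of a group biological repeats, but the labels do not say whether they came from separate mice or cultures. The p-values then measure the spread between samples, which may not be that between mice.

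Integrins are receptors made of 1 alpha and 1 beta subunit that tie cells to the extracellular matrix and signal through adaptor proteins at their tails. Laminins are cross-shaped trimers of an alpha, a beta and a gamma chain and a main ligand of integrins in basement membranes. In the adult brain, neural stem cells touch laminin-rich structures of their niche through integrins with the beta subunit encoded by Itgb1, and astrocytes hold on to the basement membrane of vessels.

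Levels are given as FPKM, fragments scaled by transcript length and library size, which allows genes to be compared per length. The deposited values are rounded to 0.01 and the depth of the samples is unknown. The limma fits used log2(FPKM + 0.1) values, and adding 0.1 understates the change of low genes. A gene was called when its p, adjusted by the Benjamini-Hochberg method over all tested genes, was under 0.05. For the members an exact permutation p (two-sided) was computed too, which cannot fall below 0.10 with 3 samples on each side.

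All 7 markers of neural stem/progenitor cells were detected, and Sox2 stood at 224.8 ± 24.1 FPKM (SD, n = 3) in proliferating Ctrl and 146.9 ± 4.59 FPKM in differentiation Ctrl. Neuron markers summed to between 21.4 and 34.7 FPKM in the 12 samples, with Dcx called higher upon differentiation in both Ctrl and NAD+ cells. The summed astrocyte markers lay between 232 and 445 FPKM under proliferating and between 995 and 1444 FPKM under differentiation conditions, those of the oligodendrocyte lineage between 1006 and 1370 and between 333 and 456 FPKM, and those of ependymal cells between 9.60 and 11.6 and between 25.4 and 31.7 FPKM. The part of these shifts in the differences between states was not tested. Cells of a type becoming fewer and cells holding less of an RNA cannot be told apart in bulk samples. The sum of 7 endothelial markers stayed at or below 0.90 FPKM and that of 8 pericyte, smooth muscle and fibroblast markers at or below 1.84 FPKM. Replicate 1 of proliferating Ctrl stood apart, with an FPKM sum of 363330 against 308828 to 349649 in the other 11 samples and a sum over the 37 members of 275.9 FPKM against 331.3 to 384.6.

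Itgb1, the common partner of most alpha subunits, had the highest level of the 37 genes in every sample. Its FPKM values were 159.22, 182.12 and 197.04 in proliferating Ctrl, 193.83, 211.29 and 209.67 in proliferating NAD+, 140.99, 146.73 and 145.68 in differentiation Ctrl, and 163.18, 164.50 and 164.37 in differentiation NAD+. Of the 37 members, 8 reached a mean of at least 10 FPKM in some group, 18 reached at least 1 FPKM, and 8 had their highest group mean between 0.1 and 1 FPKM. The remaining 11 had a mean under 0.1 FPKM in every group, and 2 of them, Itgb6 and Itgad, were listed at 0 in all 12 samples. Among those 11 were the leukocyte alpha subunits Itgal, Itgam, Itgax, Itgad and Itgae and the epithelial laminin chains Lama3 and Lamb3. Itgb2, the partner of most of these leukocyte alpha subunits, had group means between 0.11 and 0.22 FPKM, and of 11 markers of microglia and other myeloid cells only Cd68 reached a mean of 1 FPKM in any group.

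**Figure D1:**
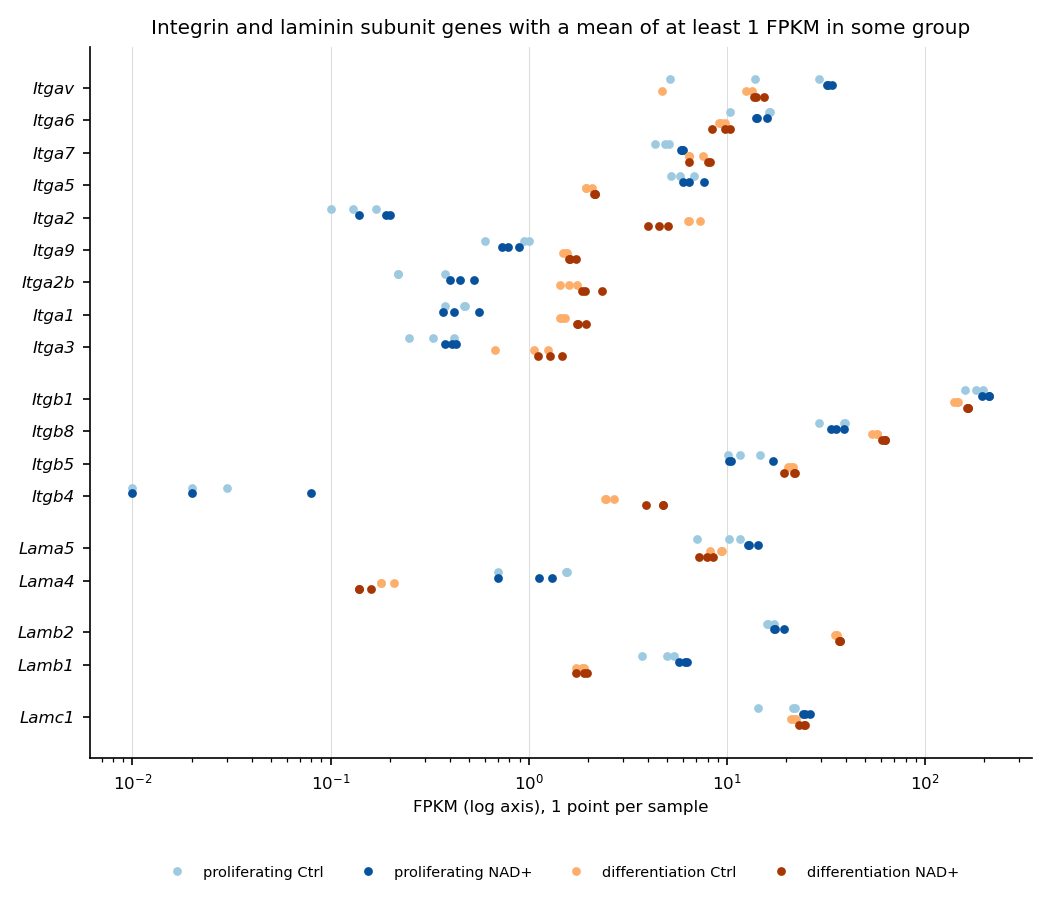
FPKM of each sample on a log axis for the 18 integrin and laminin subunit genes with a mean of at least 1 FPKM in some group, ordered by family and mean level, with 1 point per sample and colors for the 4 groups. Itgb1 lies at 140.99 FPKM or more in all 12 samples, and Itgb4 and Itga2 shift most between proliferating and differentiation conditions.

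Itgb1 shared the beta subunit pool mainly with Itgb8 and Itgb5, which both pair with the alpha subunit encoded by Itgav. Of the summed FPKM of the 8 beta genes, Itgb1 made up 78.7% ± 1.12 (SD, n = 3) in proliferating Ctrl and 64.1% ± 0.23 in differentiation Ctrl. The share of Itgb8, which is known for activating latent TGF-beta together with its alpha partner, was 15.7% ± 1.26 in proliferating Ctrl and 24.9% ± 0.18 in differentiation Ctrl. In the NAD+ groups the share of Itgb1 was 80.6% ± 2.86 and 64.9% ± 0.34, respectively. Every proliferating sample was above every differentiation sample, and under differentiation conditions the 3 NAD+ samples (64.5% to 65.2%) lay just above the 3 Ctrl samples (63.9% to 64.3%). Shares within a sample do not depend on the scaling between samples, and no test was made on them.

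Among the alpha genes, Itgav and Itga6, a receptor subunit for laminin, had the highest mean shares in proliferating cells. In proliferating Ctrl, Itgav took 17.3%, 30.4% and 49.4% of the summed alpha FPKM in the 3 samples and Itga6 32.7% ± 4.33, and in replicate 1 the 22.8% of Itga5 exceeded the share of Itgav. In proliferating NAD+ cells, Itgav took 51.3% ± 0.54 of the summed alpha FPKM and Itga6 23.0% ± 0.67. In differentiation Ctrl, the shares were 23.7% ± 9.15 for Itgav, 22.9% ± 4.07 for Itga6, 16.4% ± 1.83 for Itga7, another laminin receptor subunit, and 16.1% ± 1.87 for Itga2, a collagen receptor subunit. Itga2 had stood at 0.31% ± 0.11 in proliferating Ctrl. In differentiation NAD+ cells the shares were 31.4% ± 2.95 for Itgav, 20.7% ± 1.60 for Itga6 and 16.4% ± 1.59 for Itga7. The share of Itga2 there was 9.86% ± 0.85, with all 3 samples below all 3 differentiation Ctrl samples.

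The laminin chains were dominated by Lama5, Lamb2 and Lamc1, which can join in 1 trimer. Lama5 made up between 83.9% and 96.1% of the summed laminin alpha FPKM in the 12 samples, and Lamc1 between 99.6% and 100% of the gamma FPKM. The ratio of Lamb2 to Lamb1 in a sample was 4.24, 3.49 and 2.99 in proliferating Ctrl and 3.39, 2.75 and 2.84 in proliferating NAD+. It was 18.6, 19.3 and 20.3 in differentiation Ctrl and 18.9, 19.5 and 21.4 in differentiation NAD+. Every differentiation sample was thus above every proliferating sample, and the NAD+ and Ctrl values were interleaved under differentiation conditions.

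**Figure D2:**
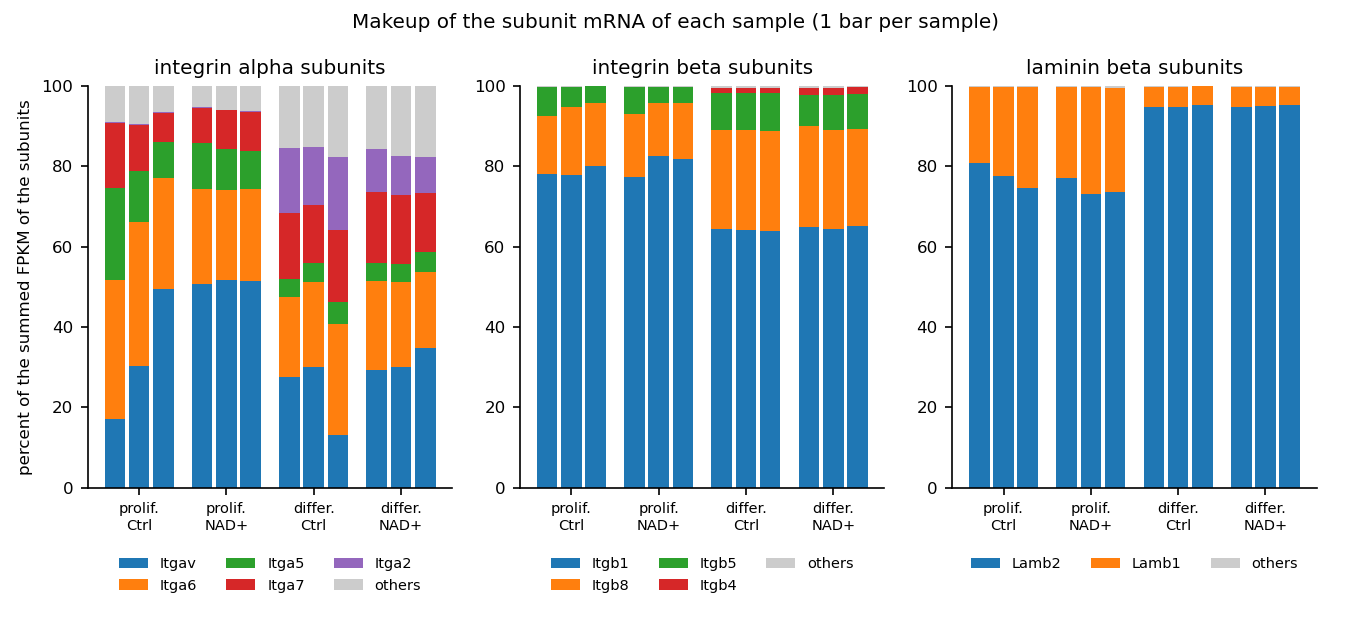
Percent of the summed FPKM of integrin alpha, integrin beta and laminin beta subunit genes taken by named genes, with 1 bar per sample and 3 bars per group. Lamb1 makes up 22.1% of the laminin beta FPKM in proliferating Ctrl on average and 4.90% in differentiation Ctrl, and Itga2 appears as a visible part of the alpha genes only under differentiation conditions.

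The comparison of differentiation with proliferating conditions asked how the subunit genes differ between the states, in Ctrl and in NAD+ cells separately. In Ctrl, 13 of 26 tested members rose and 8 fell, against 25.0% of 19498 tested genes that rose and 31.6% that fell. In NAD+ cells, 11 of 26 rose and 9 fell, against 20.8% and 37.6% of all genes. The share of members that fell was near that of all genes, and the share that rose was above it. The median log2 fold change of the members was 0.48 in Ctrl and 0.30 in NAD+ cells, beside -0.06 and -0.20 for all tested genes. Itgb4 and Itgb7 passed the filter on low values (a mean of 0.1 FPKM) only through the differentiation samples, and Itga4 and Lama1 only through the proliferating samples. These 4 had to differ, so their values between states are given without a p, and these counts and medians describe the members and support nothing further. The levels come from a table for each condition, and whether both were scaled together is not stated. Median-ratio scaling moved the median of all genes to 0.15 in both Ctrl and NAD+ cells, and quantile normalization to -0.02 in both. With median-ratio scaling, the share of rises among all calls went from 44.2% to 58.2% in Ctrl and from 35.6% to 57.3% in NAD+ cells. The members then numbered 14 rises and 5 falls in both, and with quantile normalization 14 and 6 in Ctrl and 12 and 7 in NAD+ cells.

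Itga2 encodes the alpha subunit that, with the product of Itgb1, forms a collagen receptor, and lies at chr13:114833081-114932100 on the minus strand (mm10, GENCODE M21). Its FPKM values were 0.13, 0.10 and 0.17 in proliferating Ctrl, 0.19, 0.14 and 0.20 in proliferating NAD+, 7.29, 6.37 and 6.43 in differentiation Ctrl and 5.06, 4.54 and 4.02 in differentiation NAD+. No sample of one state came near the other state. The ratio of means was 50.2 in Ctrl, with a log2 fold change of 4.87 (SE 0.16, adjusted p = 4.27e-09), and 25.7 in NAD+ cells, with a log2 fold change of 4.07 (SE 0.16, adjusted p = 1.09e-08).

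Itga1, which encodes another collagen-binding subunit, is the neighbour of Itga2 on the same strand at chr13:114953096-115101964, 20995 bases away. Its mean was 0.44 ± 0.06 FPKM (SD, n = 3) in proliferating Ctrl and 1.48 ± 0.04 in differentiation Ctrl, a log2 fold change of 1.54 (SE 0.16, adjusted p = 1.28e-05). In NAD+ cells the means were 0.45 ± 0.10 and 1.83 ± 0.10 FPKM, a log2 fold change of 1.82 (SE 0.16, adjusted p = 2.90e-06). Exons of Itga1 share 685 bases with Gm49395, a gene of the same strand with group means of 0.03 to 0.24 FPKM, and how reads on shared bases were counted is not given in the sources used here. Both neighbours were at least 3-fold higher in differentiation than in proliferating samples.

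Itga2 and Itga1 are shown as sequence because they are neighbours that both rose. Since forskolin raises cAMP and retinoic acid binds nuclear receptors, the 250 bases before their RefSeq starts (GRCm38.p6) were searched on both strands for the cAMP response element TGACGTCA, its part TGACG, the nuclear receptor motif AGGTCA, the AP-1 site TGAGTCA, the GC box GGGCGG and the TATA box TATAAA. The windows of Itgb1, the highest member, and of Lama5, the leading laminin alpha gene, are shown beside them, since these hold matches. The windows lie at chr13:114932101-114932350 (minus strand) for Itga2, chr13:115101965-115102214 (minus strand) for Itga1, chr8:128685404-128685653 (plus strand) for Itgb1 and chr2:180225860-180226109 (minus strand) for Lama5, and none overlaps an annotated exon. Each is written 5′ to 3′ with matched letters in capitals.
Itga2: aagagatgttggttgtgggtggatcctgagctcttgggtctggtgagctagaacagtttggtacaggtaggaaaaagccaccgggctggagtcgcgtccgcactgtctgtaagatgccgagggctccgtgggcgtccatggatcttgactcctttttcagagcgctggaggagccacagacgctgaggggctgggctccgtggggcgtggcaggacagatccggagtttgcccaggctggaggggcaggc
Itga1: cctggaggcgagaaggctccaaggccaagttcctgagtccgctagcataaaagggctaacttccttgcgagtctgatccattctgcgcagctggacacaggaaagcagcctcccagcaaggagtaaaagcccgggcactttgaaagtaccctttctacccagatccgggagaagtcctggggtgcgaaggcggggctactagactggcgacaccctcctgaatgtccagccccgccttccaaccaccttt
Itgb1: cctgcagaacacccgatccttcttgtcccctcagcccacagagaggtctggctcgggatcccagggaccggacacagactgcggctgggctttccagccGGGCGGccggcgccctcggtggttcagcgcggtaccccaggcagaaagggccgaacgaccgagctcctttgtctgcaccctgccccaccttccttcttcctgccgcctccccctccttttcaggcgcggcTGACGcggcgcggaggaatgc
Lama5: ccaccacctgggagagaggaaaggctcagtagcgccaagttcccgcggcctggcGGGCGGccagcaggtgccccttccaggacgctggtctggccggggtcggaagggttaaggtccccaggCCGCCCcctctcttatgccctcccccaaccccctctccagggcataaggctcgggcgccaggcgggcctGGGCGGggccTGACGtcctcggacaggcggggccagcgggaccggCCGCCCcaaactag
Neither the Itga2 nor the Itga1 window held any of the 6 motifs. The Itgb1 window held 1 TGACG and 1 GC box, and the Lama5 window 1 TGACG and 4 GC boxes. Of 23 members with an entry in the RefSeq table, 4 held TGACG, 8 a GC box, 1 the AP-1 site and 0 the other motifs. Of all 32851 promoter windows of this length, 17.8% held TGACG, 32.7% a GC box, 4.46% the AP-1 site, 1.55% the full cAMP element, 14% AGGTCA and 12.4% TATAAA. A match is a run of letters and no evidence of binding, and a missing match says only that these letters are absent from this window. Itgb4 had no entry.

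Itgb4, whose long-tailed product pairs with that of Itga6 in a laminin receptor of hemidesmosomes, lies at chr11:115974709-116008412 on the plus strand. Exons of Itgb4 share 537 bases with B230344G16Rik, a noncoding RNA gene of the opposite strand that has no deposited values. The libraries hold no strand mark, so reads of that gene could not be told apart there. The FPKM values below are those of Itgb4 as deposited. Its FPKM values were 0.01, 0.03 and 0.02 in proliferating Ctrl, 0.08, 0.01 and 0.02 in proliferating NAD+, 2.69, 2.45 and 2.42 in differentiation Ctrl, and 4.78, 4.75 and 3.92 in differentiation NAD+. The proliferating values were at most 8 rounding steps of 0.01 FPKM above 0, so the fold between states is not well determined. On the log2(FPKM + 0.1) scale the difference between states was 4.45 (SE 0.21) in Ctrl and 5.10 (SE 0.21) in NAD+ cells. The partner Itga6 did not rise with it. Its values were 10.38, 16.38 and 16.52 in proliferating Ctrl, 15.91, 14.03 and 14.29 in proliferating NAD+, 9.09, 9.41 and 9.82 in differentiation Ctrl, and 10.40, 9.86 and 8.38 in differentiation NAD+. The fall of Itga6 was 0.58 on the log2 scale in Ctrl (log2 fold change -0.58, SE 0.16, adjusted p = 0.00941), but it was not called with median-ratio scaling (adjusted p = 0.0756) or quantile normalization (adjusted p = 0.0979). The ratio of Itgb4 to Itga6 FPKM was 0.27 ± 0.03 in differentiation Ctrl and 0.47 ± 0.01 in differentiation NAD+.

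Of the other laminin receptor subunits, Itga3 and Itga7 rose too. Itga3 went from 0.33 ± 0.09 to 1.00 ± 0.30 FPKM in Ctrl (log2 fold change 1.33, SE 0.23, adjusted p = 5.53e-04) and Itga7 from 4.79 ± 0.40 to 6.82 ± 0.64 FPKM (log2 fold change 0.50, SE 0.11, adjusted p = 0.00252). Itga2b, best known as the platelet receptor for fibrinogen, went from 0.27 ± 0.09 to 1.60 ± 0.16 FPKM (log2 fold change 2.21, SE 0.20, adjusted p = 3.72e-06), while its partner Itgb3 went from 0.25 ± 0.09 to 0.60 ± 0.05 FPKM (log2 fold change 1.00, SE 0.21, adjusted p = 0.00198). Itgb7, a partner in leukocyte integrins, was at 0.06 FPKM on average in proliferating Ctrl and 0.52 FPKM in differentiation Ctrl. Itga9, a receptor subunit for tenascin-C, went from 0.85 ± 0.22 to 1.54 ± 0.03 FPKM (log2 fold change 0.81, SE 0.18, adjusted p = 0.00240). The rise of Itga7 in NAD+ cells (log2 fold change 0.34, adjusted p = 0.0215) was lost without proliferating NAD+ replicate 1 or 3 or differentiation NAD+ replicate 1 or 2 (adjusted p between 0.0510 and 0.0841). The rise of Itgb3 was not called in NAD+ cells (log2 fold change 0.27, adjusted p = 0.303), nor was that of the collagen receptor subunit gene Itga10 (adjusted p = 0.0629). With median-ratio scaling both were called higher in NAD+ cells (adjusted p = 0.0277 for Itgb3 and 0.0144 for Itga10), and Itga10 also without proliferating NAD+ replicate 3 (adjusted p = 0.0291) or differentiation NAD+ replicate 2 (adjusted p = 0.0364).

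Itgb8 and Itgb5 rose by smaller amounts at higher levels. The FPKM values of Itgb8 were 29.23, 39.38 and 38.88 in proliferating Ctrl, 39.18, 33.45 and 35.71 in proliferating NAD+, 54.09, 57.06 and 57.04 in differentiation Ctrl, and 63.19, 62.74 and 60.97 in differentiation NAD+. Those of Itgb5, whose product pairs with that of Itgav to bind vitronectin, were 14.69, 11.65 and 10.14, then 17.04, 10.30 and 10.50, then 20.29, 21.10 and 21.65, and 19.46, 21.78 and 22.10 in the same order of groups. All differentiation samples were above all proliferating samples for both genes. The log2 fold change in Ctrl was 0.66 for Itgb8 (SE 0.11, adjusted p = 2.98e-04) and 0.80 for Itgb5 (SE 0.18, adjusted p = 0.00311).

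Their alpha partner Itgav, at chr2:83724397-83806916 on the plus strand, was not called between states. Its values were 5.19, 13.86 and 29.39 FPKM in proliferating Ctrl, 34.15, 32.60 and 32.02 in proliferating NAD+, 12.58, 13.47 and 4.72 in differentiation Ctrl, and 13.76, 14.10 and 15.34 in differentiation NAD+. The Ctrl samples spread widely under both conditions and the NAD+ samples did not. The log2 fold change was -0.46 in Ctrl (SE 0.53, adjusted p = 0.480) and -1.19 in NAD+ cells (SE 0.53, adjusted p = 0.0755). Without proliferating Ctrl replicate 1, both were called, with adjusted p = 0.0460 and 0.0194. In NAD+ cells it was also called without proliferating Ctrl replicate 3 (adjusted p = 0.0290) or differentiation Ctrl replicate 3 (adjusted p = 0.0492).

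Itga5 and Itga4 encode subunits of fibronectin receptors. Itga5 fell from 5.95 ± 0.83 to 2.00 ± 0.09 FPKM in Ctrl (log2 fold change -1.52, SE 0.12, adjusted p = 1.43e-06) and from 6.69 ± 0.85 to 2.16 ± 0.01 FPKM in NAD+ cells (log2 fold change -1.58, SE 0.12, adjusted p = 8.35e-07). Itga4, which also binds the adhesion molecule encoded by Vcam1, was at 0.74 ± 0.25 FPKM in proliferating Ctrl and 0.09 ± 0.02 FPKM in differentiation Ctrl. Itga8 was called lower in both Ctrl (log2 fold change -0.76, adjusted p = 0.0363) and NAD+ cells (log2 fold change -0.88, adjusted p = 0.0172), but not with median-ratio scaling (adjusted p = 0.0903 and 0.0895), nor in Ctrl without the filter (adjusted p = 0.0714). The call was also lost in Ctrl without any 1 of 5 libraries, proliferating Ctrl replicates 2 and 3 and differentiation Ctrl replicates 1 to 3 (adjusted p between 0.0617 and 0.134), and in NAD+ cells without proliferating NAD+ replicate 2 (adjusted p = 0.0529). Itgb1 itself was called lower in Ctrl (log2 fold change -0.31, adjusted p = 0.00532) and in NAD+ cells (log2 fold change -0.32, adjusted p = 0.00395), a direction that rests on the scaling, since quantile normalization gave 0.20 in Ctrl, and both scalings gave values above 0 in NAD+ cells.

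The laminin beta chains moved in opposite directions. Lamb2, whose chain is common in mature basement membranes, had FPKM values of 15.91, 17.35 and 16.22 in proliferating Ctrl, 19.40, 17.41 and 17.55 in proliferating NAD+, 35.59, 35.97 and 35.04 in differentiation Ctrl, and 37.12, 37.07 and 37.30 in differentiation NAD+. This was a rise of 1.10 (SE 0.06, adjusted p = 1.07e-07) in Ctrl and of 1.03 (SE 0.06, adjusted p = 1.27e-07) in NAD+ cells on the log2 scale. Lamb1, whose chain is prominent in embryonic laminin, fell from 4.72 ± 0.87 to 1.83 ± 0.09 FPKM in Ctrl (log2 fold change -1.30, SE 0.13, adjusted p = 8.92e-06) and from 6.08 ± 0.32 to 1.87 ± 0.11 FPKM in NAD+ cells (log2 fold change -1.65, SE 0.13, adjusted p = 1.19e-06). Lama4, a chain of vessel laminin, fell from 1.27 ± 0.49 to 0.19 ± 0.02 FPKM in Ctrl (log2 fold change -2.17, SE 0.30, adjusted p = 1.07e-04). Lama1 was at 0.21 ± 0.09 FPKM in proliferating Ctrl and 0.05 ± 0.03 FPKM in differentiation Ctrl. The endothelial marker sum was 0.36 to 0.65 FPKM in proliferating Ctrl and 0.15 to 0.25 in differentiation Ctrl, with Cldn5 at 0 in both. Most of that difference came from Flt1, with means of 0.38 and 0.07 FPKM. Tek (0.04 and 0.03) and Pecam1 (0.04 and 0.02) were slightly lower too, and Kdr (0.07 and 0.08) was not. The part of endothelial cells in the fall of Lama4 was not tested.

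Lamc1 and Lama5 were not called between states in Ctrl. The FPKM values of Lamc1, the gamma chain of most laminins, were 14.36, 22.08 and 21.53 in proliferating Ctrl, 24.25, 26.32 and 24.81 in proliferating NAD+, 21.06, 22.30 and 21.83 in differentiation Ctrl, and 24.44, 24.84 and 23.23 in differentiation NAD+. It was not called between states (log2 fold change 0.19 in Ctrl, adjusted p = 0.239, and -0.06 in NAD+ cells, adjusted p = 0.745), but was called higher under median-ratio scaling in Ctrl (adjusted p = 0.00980) and in NAD+ cells (adjusted p = 0.0316), and under quantile normalization (adjusted p = 0.00279 and 0.0175). The values of Lama5 were 7.11, 11.62 and 10.22 in proliferating Ctrl, 12.90, 14.43 and 12.75 in proliferating NAD+, 9.52, 9.32 and 8.21 in differentiation Ctrl, and 8.53, 7.96 and 7.26 in differentiation NAD+. In NAD+ cells, Lama5 was lower upon differentiation (log2 fold change -0.75, SE 0.15, adjusted p = 0.00148), with adjusted p = 0.0501 under median-ratio scaling. In Ctrl, its log2 fold change was -0.07 (adjusted p = 0.719), or -0.27 without proliferating Ctrl replicate 1 (adjusted p = 0.0413).

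**Figure D3:**
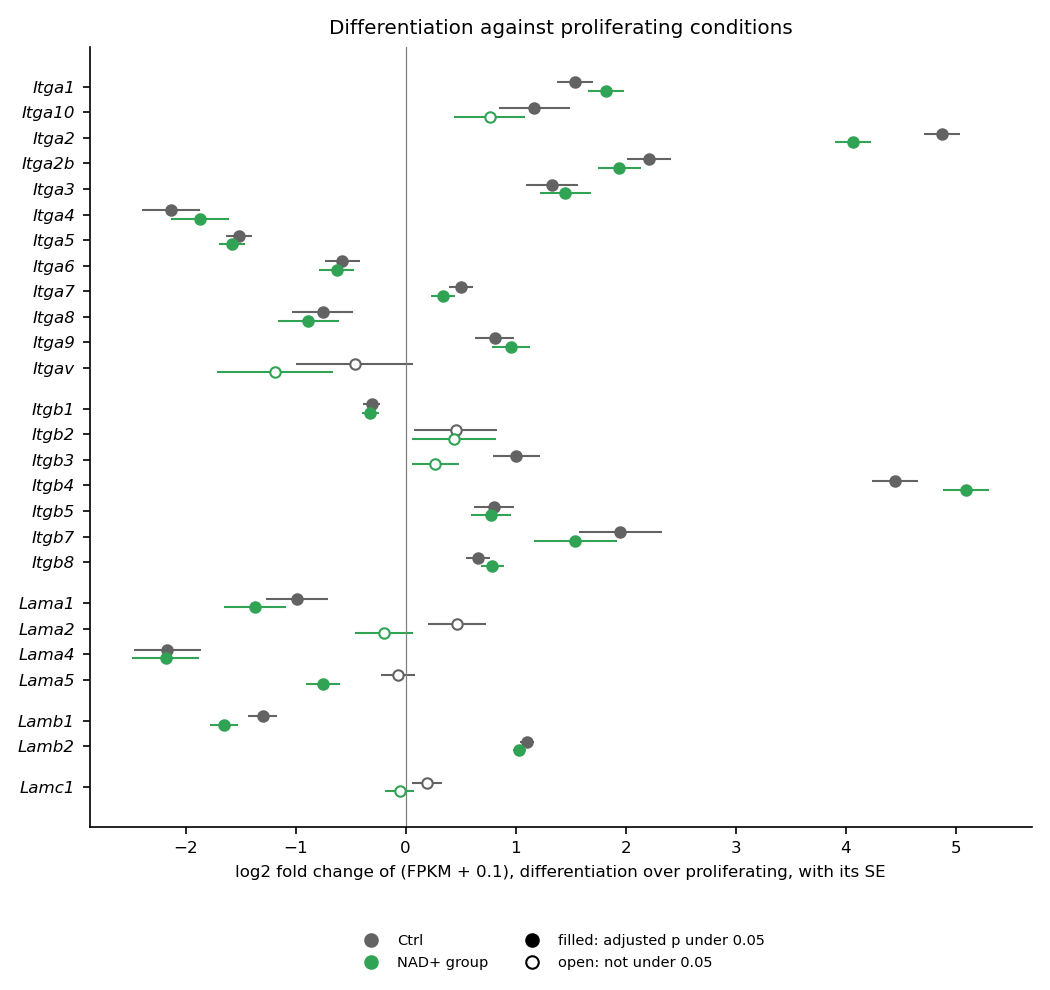
Log2 fold change of (FPKM + 0.1), differentiation over proliferating conditions, with its SE, for the 26 tested members in Ctrl and in the NAD+ group, with filled points for adjusted p under 0.05. Itga2 and Itgb4 lie at 4.07 to 5.10, and Lamb2 and Lamb1 lie on opposite sides of 0.

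The comparison of NAD+ with Ctrl under differentiation conditions asked which subunit genes differ with NAD+ exposure during differentiation. Of 24 tested members, 2 rose and 1 fell, against 6.92% of 19611 tested genes called in either direction. Itgb4 was higher, with 4.48 ± 0.49 FPKM (SD, n = 3) against 2.52 ± 0.15 in Ctrl, a ratio of 1.78 and a log2 fold change of 0.80 (SE 0.11, adjusted p = 0.0130). Itga2 was lower, with 4.54 ± 0.52 against 6.70 ± 0.51 FPKM, a ratio of 0.68 and a log2 fold change of -0.55 (SE 0.11, adjusted p = 0.0331). Itgb1 was higher by a small amount, with 164.0 ± 0.73 against 144.5 ± 3.06 FPKM, a ratio of 1.14 and a log2 fold change of 0.18 (SE 0.04, adjusted p = 0.0467). In all 3 genes the NAD+ and Ctrl samples did not overlap, and the exact permutation p was 0.10, the smallest possible.

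These 3 calls lay close to the threshold, and Itgb4 was the most stable of them. Itgb4 lost its call without differentiation Ctrl replicate 2 (adjusted p = 0.0517) or replicate 3 (adjusted p = 0.0531), with log2 fold changes of 0.78 in both cases. Itga2 kept its call in 8 of 14 alternatives and lost it without each library except differentiation NAD+ replicate 1 (adjusted p between 0.0827 and 0.110), and Itgb1 lost it without each of the 6 libraries (adjusted p between 0.0914 and 0.157). With a replicate block, Itgb4 (adjusted p = 0.0372) and Itga2 (adjusted p = 0.0443) were called and Itgb1 was not (adjusted p = 0.0807). Under both other scalings all 3 were called, and Itgb8 was called too, with a log2 fold change of 0.22 under median-ratio scaling (adjusted p = 0.04998) and 0.20 under quantile normalization (adjusted p = 0.0486), against 0.15 as deposited (adjusted p = 0.0987).

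At an unadjusted p under 0.05 there were 8 of 24 members, against 24.2% of all tested genes, and 13 of 24 had groups without overlap, against 30.7%. Beside the 3 called genes, the 8 were Itgb8, Lamc1, Itga1 and Itga2b, which were higher, and Lama2, which was lower. Lama2, a laminin chain prominent in muscle, was the 1 member that differed by more than 2-fold with an unadjusted p under 0.05, a rule that 4.05% of genes met. Its values were 0.16, 0.28 and 0.32 FPKM in differentiation Ctrl and 0.08, 0.12 and 0.11 FPKM in differentiation NAD+ (adjusted p = 0.181). The median log2 fold change over the 24 members was 0.08, with 16 above 0, beside -0.09 for all tested genes.

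**Figure D4:**
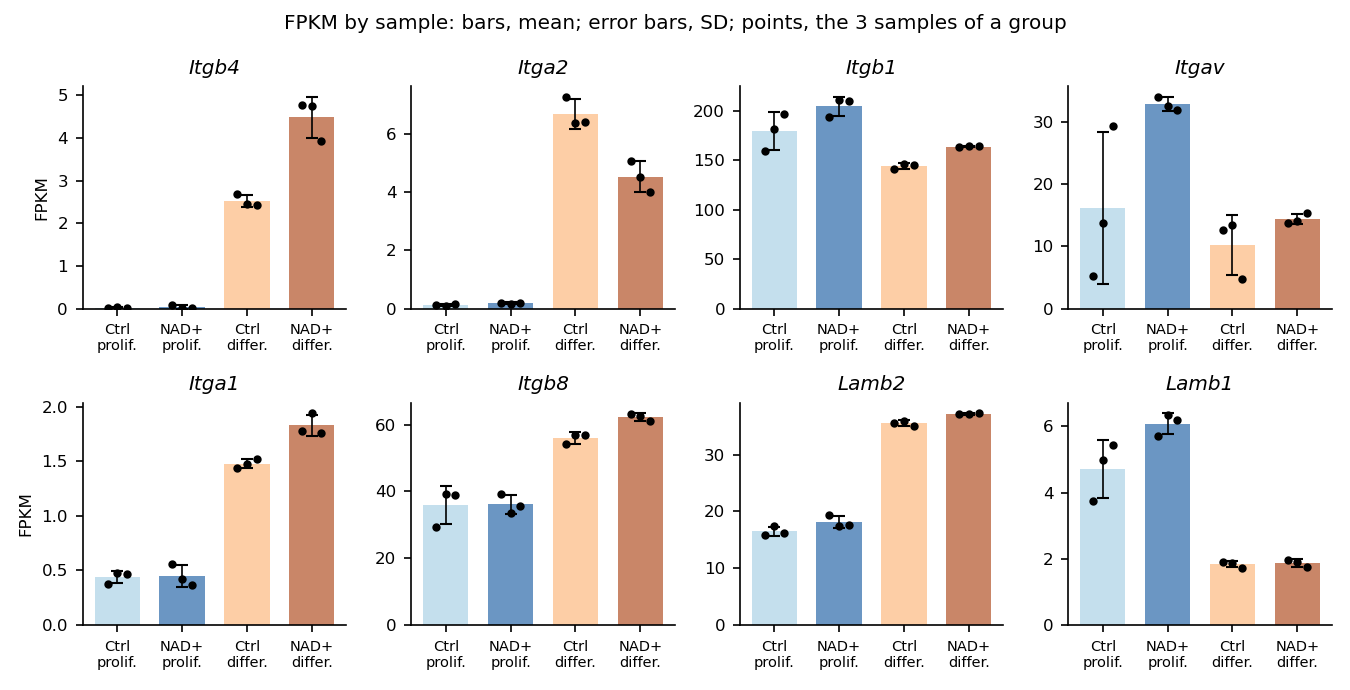
FPKM of 8 members, with bars for the mean, error bars for the SD and points for the 3 samples of each group. Itgb4 and Itga2 are near 0 under proliferating conditions, and with NAD+ under differentiation conditions Itgb4 is higher and Itga2 lower than in all Ctrl samples.

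Markers moved between differentiation Ctrl and NAD+ as well. Of 6 astrocyte markers, Gfap (log2 fold change 0.72, adjusted p = 0.00613) and Slc1a2 were called higher and Aldh1l1 lower, and the summed level was 995 to 1084 FPKM in Ctrl and 1306 to 1444 in NAD+ cells, with no marker at 0. Most of that sum was Gfap, with means of 595 FPKM in Ctrl and 977 in NAD+ cells. The means of Gja1 (174 and 127 FPKM), Aldh1l1 (93.5 and 61.3) and Aqp4 (34.8 and 27.8) were lower with NAD+, and those of Slc1a2 and S100b higher. The sum of the 7 listed oligodendrocyte lineage markers was 444 to 456 FPKM in Ctrl and 333 to 367 in NAD+ cells. Calls among the 7 neural stem/progenitor markers included Sox9 and Vim, both higher, and the list summed to 758 to 844 FPKM in Ctrl and 777 to 855 in NAD+ cells. The part of these shifts in the differences of Itgb4, Itga2 and Itgb1 was not tested. Of the 11 myeloid markers, Cd68 was the 1 tested here and was called higher. All the others had means at or below 0.1 FPKM in both groups and went both ways. P2ry12 was at 0.027 FPKM in Ctrl and 0.097 in NAD+ cells, and Tyrobp at 0.1 and 0.023.

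Under proliferating conditions, the same comparison called 0 of 24 tested members with limma, against 0.145% of 18597 tested genes. An unadjusted p under 0.05 was reached by 4 members, against 15.4% of genes, and all 4, Itga7, Itgav, Lama5 and Lamb1, were higher with NAD+. Groups without overlap were found for 7 of 24 members, these 4 and Itga2b, Lamb2 and Lamc1, against 24.1% of genes. Both shares were near those of all genes. The log2 fold change was 0.30 for Itga7 (SE 0.10, adjusted p = 0.251), 0.49 for Lama5 (SE 0.18, adjusted p = 0.279) and 0.37 for Lamb1 (SE 0.15, adjusted p = 0.314).

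Itgav had the largest value among the members. Its 3 NAD+ samples lay between 32.02 and 34.15 FPKM, above the highest Ctrl sample at 29.39 FPKM, with a log2 fold change of 1.35 (SE 0.56, adjusted p = 0.318). This value was 0.70 without proliferating Ctrl replicate 1 and 1.94 without proliferating Ctrl replicate 3. Itgav was the 1 member with an unadjusted p under 0.05 and a ratio over 2 (2.04), a rule met by 3.01% of genes. Itgb4 and Itgb7 were not tested here, since their mean over the 6 samples was under 0.1 FPKM.

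Of the 24 members, 20 had a log2 fold change above 0, with a median of 0.21 beside 0.07 for all genes. Proliferating Ctrl replicate 1 was the lowest of the 3 Ctrl samples for 17 of the 24 members and for 46.2% of all tested genes. Without it, the median was 0.18, 16 members were above 0 and 0 were called. With median-ratio scaling the median was 0.16 and 15 members were above 0.

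**Figure D5:**
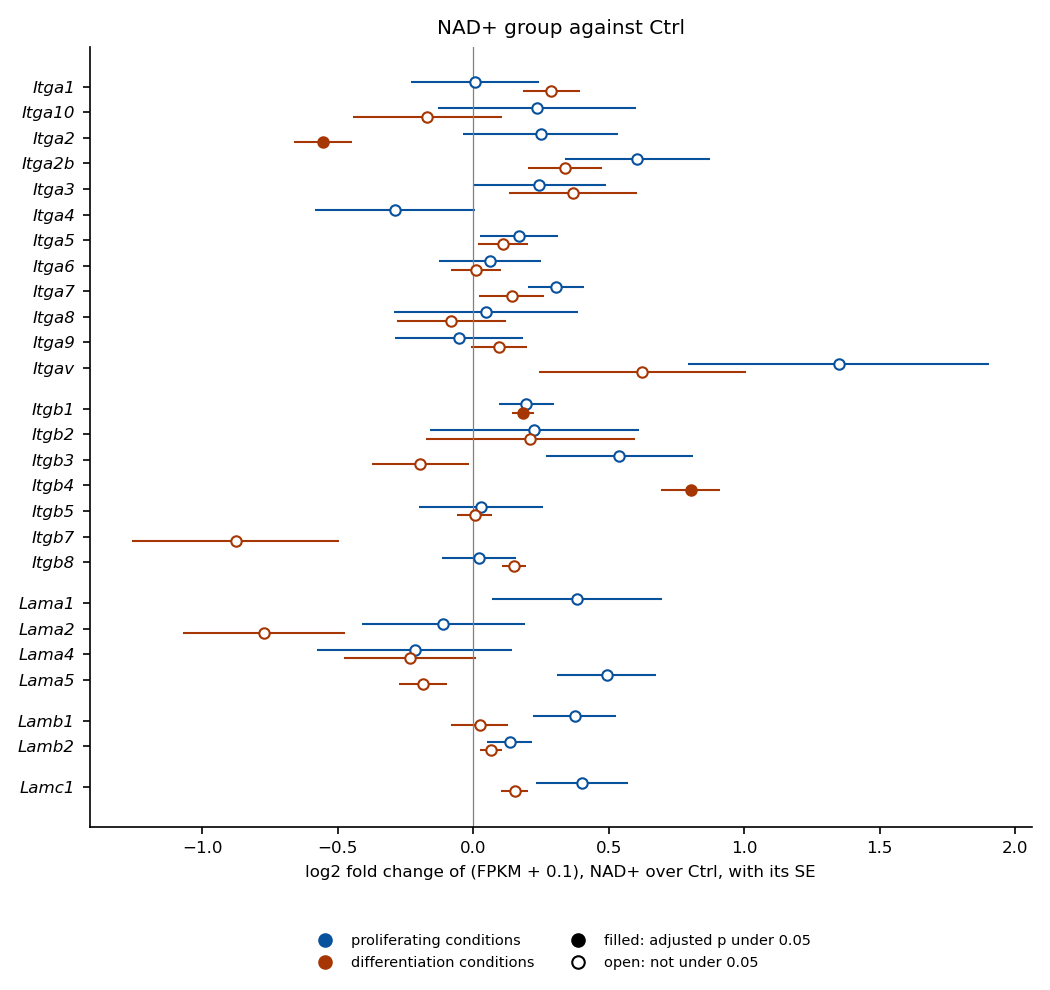
Log2 fold change of (FPKM + 0.1), NAD+ over Ctrl, with its SE, for the members tested under proliferating and under differentiation conditions, with filled points for adjusted p under 0.05. The filled points are Itgb4, Itga2 and Itgb1 under differentiation conditions, and the proliferating values of Itgav have the widest SE at 0.56.

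Whether the difference between NAD+ and Ctrl itself depended on the condition was tested by the contrast of both differences over all 12 samples. None of the 26 tested members was called by limma, against 0.467% of 19498 genes, and 3 had an unadjusted p under 0.05, against 15.5%. These were Itga2, with a difference of -0.80 on the log2 scale (SE 0.23, adjusted p = 0.151), Lama5, with -0.68 (SE 0.22, adjusted p = 0.191), and Itgb3, with -0.74 (SE 0.30, adjusted p = 0.282). Lama5 had been higher with NAD+ in all 3 proliferating samples, and its log2 fold change under differentiation conditions was -0.19 (adjusted p = 0.272). The difference for Itgb4 was 0.65 (SE 0.29), given without a p, since Itgb4 passed the filter only through the differentiation samples. Its proliferating values were so low that adding 0.1 or 1 before logs keeps their NAD+ difference small. The contrast for Itgb4 thus mostly repeats its difference under differentiation conditions. For the same reason, its call with 1 added before taking logs (0.61) does not show a dependence on the condition. The 3 calls under differentiation conditions are thus not shown to be particular to that condition.

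Further lists of genes around integrins and laminins were followed, adaptors and kinases at integrin tails, other basement membrane and laminin receptor genes, and integrin ligands other than laminin. Of 23 tested adaptor and kinase genes, 8 fell and 0 rose with NAD+ under differentiation conditions, against 4.65% of all tested genes that fell and 2.27% that rose, with a median log2 fold change of -0.27, and 0 of 24 were called under proliferating conditions. The 8 were Actn1, Bcar1, Fermt2, Fyn, Lims2, Parvb, Ptk2 and Tns3, genes for proteins that link integrins to actin or signal from them. Lims2, whose protein joins the complex of integrin-linked kinase, was at 11.78, 14.57 and 15.18 FPKM in Ctrl and 4.0, 8.2 and 3.56 FPKM in NAD+ cells (log2 fold change -1.47, SE 0.31, adjusted p = 0.0416). Parvb, of the same complex, had a log2 fold change of -0.67 (adjusted p = 0.0363), the tensin gene Tns3 of -0.58 (adjusted p = 0.0181) and the actinin gene Actn1 of -0.54 (adjusted p = 0.0140). The count was 4 with median-ratio scaling, 3 with the replicate block, 5 with quantile normalization or without the filter, 2 with unmoderated variances, and 5 without differentiation NAD+ replicate 2. It was 2 without differentiation Ctrl replicate 3, 1 without differentiation NAD+ replicate 1 or 3, and 0 without differentiation Ctrl replicate 1 or 2.

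Of 16 tested basement membrane and laminin receptor genes, 3 rose and 2 fell with NAD+ under differentiation conditions, against the same 2.27% and 4.65% of all genes. Ntn4, a laminin-related gene, went from 10.02 ± 0.78 to 17.33 ± 1.86 FPKM (log2 fold change 0.78, SE 0.10, adjusted p = 0.0109), and Col4a5, a collagen IV chain, from 38.3 ± 0.73 to 54.8 ± 1.80 FPKM (log2 fold change 0.51, SE 0.05, adjusted p = 0.00494). Nid1, which bridges laminin and collagen IV, went from 36.3 ± 2.21 to 25.0 ± 0.47 FPKM (log2 fold change -0.53, SE 0.06, adjusted p = 0.00756), and Ntn1, another laminin-related gene, from 47.1 ± 1.81 to 34.4 ± 2.47 FPKM (log2 fold change -0.45, SE 0.07, adjusted p = 0.0153). The third gene that rose was Col4a6. Without any 1 of the differentiation Ctrl samples, 2 rises and 1 fall were called. Under proliferating conditions 0 of 14 were called. Between states, 10 of 15 rose and 1 fell in Ctrl (25.0% and 31.6% of all genes), and 11 rose and 1 fell in NAD+ cells (20.8% and 37.6% of all genes), where the rises include Col4a3, which passed the filter only through differentiation samples.

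Of the non-laminin ligand genes, 1 of 14 was called with NAD+ under differentiation conditions, against 6.92% of all tested genes in either direction. That share was near that of all genes. The called gene was Tnc, which encodes tenascin-C. It was at 1.78, 1.88 and 1.49 FPKM in Ctrl and 0.48, 0.74 and 0.34 FPKM in NAD+ cells (log2 fold change -1.60, SE 0.26, adjusted p = 0.0207). Under proliferating conditions it was at 18.01, 21.50 and 18.89 FPKM in Ctrl and 25.41, 27.46 and 27.15 in NAD+ cells, higher in all 3 samples (log2 fold change 0.46, SE 0.09, adjusted p = 0.117). The difference of the NAD+ effect was called for Tnc (-2.05, SE 0.27, adjusted p = 0.0178), 1 of 13 tested ligand genes, against 0.467% of all genes. The call under differentiation conditions was lost without any 1 of the differentiation Ctrl samples or differentiation NAD+ replicate 1 and with unmoderated variances, and that of the difference without proliferating NAD+ replicate 3 or differentiation Ctrl replicate 1 or 2, where 0 ligand genes were called. Between states, 4 of 13 ligand genes rose and 5 fell in Ctrl, and 6 rose and 6 fell in NAD+ cells, beside the shares of all genes given for the basement membrane list. For the adaptor list the counts between states were 8 rises and 7 falls of 24 in Ctrl, and 4 rises and 11 falls in NAD+ cells, which became 11 and 3 with median-ratio scaling. The 11 falls include Ptk2b, which passed the filter only through proliferating samples, and the shares of all genes are again 25.0% and 31.6% in Ctrl and 20.8% and 37.6% in NAD+ cells.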

How the data were processed

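Total RNA libraries of aNSPCs (12 samples, 3 per group) were made without strand marking. The authors mapped the reads to mm10 with Hisat2 2.0.5, counted uniquely mapped reads with FeatureCounts 2.0.1 and deposited FPKM values per sample, rounded to 0.01, in 2 tables. The program behind the FPKM values is not given in the sources used here. The deposited tables also hold fold changes, p-values and q-values of the authors, which were not used. Groups follow the sample titles. Without counts, the depth of the samples and counting errors are unknown. Reads from overlapping genes cannot be told apart.

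FPKM values were used without further scaling. Genes with a mean of at least 0.1 FPKM were kept, over the 6 samples of a condition for NAD+ against Ctrl and over all 12 samples otherwise, and log2(FPKM + 0.1) was fitted (limma 3.58.1, R 4.3.3, moderated variance with a trend, two-sided, Benjamini-Hochberg over all tested genes). The 2-fold rule used ratios of mean FPKM. Gene positions are from GENCODE M21 (GRCm38), where all 37 member IDs were found, and promoters from RefSeq. Other tools were Python 3.11.15, numpy 2.4.6, pandas 2.3.3 and matplotlib 3.10.9.

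Values of every sample were given for members called in a NAD+ comparison or in the difference of the NAD+ effect, members without overlap, over 2-fold and with a mean of at least 1 FPKM, and the 8 highest members. Other members with a group mean of at least 1 FPKM were given by means, and listed genes when called with NAD+, at most 4 a list by size. Lama2 and the genes compared for their spread or ratio were named after their values were seen. The members and lists were chosen with earlier results of these data known. The same fit was tested on simulated data with 200 genes changed by 2 on the log2 scale, drawn from genes with a mean log2 value above 0. It recovered 89.5% of them under proliferating conditions (18597 genes) and 94% under differentiation conditions (19611 genes). Of its calls, 4.28% and 7.39% were of genes not changed. The set change is larger than those of the members called with NAD+, so the recovery of smaller changes or of lower genes is not known. Alternatives were 1 or 0.01 added before logs, no filter or a minimum mean of 1 FPKM, median-ratio scaling, quantile normalization, a replicate block, no moderation, the 2-fold rule, and each sample left out. Some items of the lists are not reported here.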

Additional observations from a re-analysis of the deposited data

How the results depend on the processing

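Under proliferating conditions 0 members were called in all other settings, while the rule of an unadjusted p under 0.05 and more than 2-fold gave 1. Under differentiation conditions the count of 3 lay between 0 and 2 without 1 library and was 1 under the 2-fold rule. The difference of the NAD+ effect gave 1 member with 1 added before logs, Itgb4, which passed the filter only through the differentiation samples. Differentiation against proliferating conditions in Ctrl gave 13 in place of 21 with a minimum mean of 1 FPKM, where fewer members were tested. Scaling reversed some members. In Ctrl, Itgb1 went from -0.31 to 0.20 (log2) with quantile normalization. In NAD+ cells, Itgb1 went from -0.32 to 0.0776 with median-ratio scaling and 0.0359 with quantile normalization, and Lamc1 from -0.06 to 0.34 and 0.40. The cause was not tested. Leaving aside Itgb4, Itgb7, Itga4 and Lama1, which had to differ, the members called higher in Ctrl upon differentiation were called in every alternative fit that tested them, as were Itga5, Lama4 and Lamb1 among those called lower. Of those called higher, the 2-fold rule was not met by Itga7, Itga9, Itgb5 and Itgb8. Scaling also moved the share of rises among all calls from 32.8% to 50.8% (median-ratio) or 50% (quantile) for NAD+ against Ctrl under differentiation conditions, from 33.3% to 21.7% or 27.1% under proliferating conditions, and from 47.3% to 77.5% or 68.9% for the difference of the NAD+ effect, whose median over all genes moved from -0.16 to -0.01 or -0.02.

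In the fits with a replicate block, 0 members were called under proliferating and 2 under differentiation conditions, and the calls over all genes went from 27 to 0 and from 1357 to 758. The main fits did not pair samples by number, and whether the numbers mark pairs is not known. Ctrl and NAD+ samples with the same number correlated around their group means at 0.167, 0.0125 and 0.0834 under proliferating and 0.0487, 0.0783 and 0.0195 under differentiation conditions. Those with different numbers lay between -0.171 and 0.126 and between -0.081 and 0.0339, respectively. The same-number values were all positive but small, and they do not settle whether the samples were paired. Over all genes, the calls under proliferating conditions lay between 0 and 75 across the settings and those under differentiation conditions between 328 and 1589, and those for the difference of the NAD+ effect between 12 and 195 against 91. Values rounded to 0.01 FPKM with unknown depth limit what can be said of members near 0.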
